A study of Mus musculus with 16 samples.

Results

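The nuclear serine tRNAs with the GCT anticodon were followed through 16 mouse libraries. A row was taken as a member when its name, without the species prefix, began with tRNA-Ser-GCT- and carried neither the mitochondrial prefix nor tRX, the tables' mark for another class of tRNA-like rows. The rule found 5 rows of the 826 rows that both tables hold together: tRNA-Ser-GCT-1, tRNA-Ser-GCT-2, tRNA-Ser-GCT-3/4, tRNA-Ser-GCT-5 and tRNA-Ser-GCT-6. They hold 6 names, because numbers 3 and 4 share a row in both tables. All 5 were counted in both tables and passed the filter on low counts in each, among 201 transcripts tested in the fibroblasts and 180 in the hearts.

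The libraries came from mim-tRNAseq, a method that copies whole tRNAs through their modified bases and counts reads per transcript. Of 8 libraries of mouse embryonic fibroblasts (MEFs), 2 came from each of 4 lines, Ctrl_1, Cl_1, Cl_2 and Cl_3, as separate passages. The other 8 came from hearts of the m.5024T model, which is named for position 5024 of mitochondrial DNA and to which GFP and editor hearts alike belonged. Of these mice 4 had received AAV9-GFP and 4 AAV9-DdCBE. AAV9 is a viral vector that reaches the heart, GFP a fluorescent protein used as control, and a DdCBE a base editor that acts on cytosines of mitochondrial DNA. The titles add 3X (mice 14 and 19) and 5X (mice 5 and 6) to the GFP hearts, and 2X (mouse 26), 5X (mouse 25) and 10X (mice 17 and 18) to the editor hearts, without saying what X counts. Genotype and editing of the MEF lines, and age, sex and dose of the mice, are not given in the labels used here. With 1 Ctrl line, the difference between Ctrl and Cl cannot be told apart from a difference between cell lines, and passages of a line measure less than independent lines would. The tables list tRNAs alone, so the labelled cell type and tissue could not be checked against marker genes.

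The GCT anticodon reads the serine codons AGC and AGU, while the remaining serine codons, which begin with UC, are read by tRNAs with the AGA, CGA and TGA anticodons. All nuclear serine tRNAs have a long variable arm, and seryl-tRNA synthetase, the enzyme that loads serine, recognises that arm rather than the anticodon. Members numbered apart are isodecoders, tRNAs with the same anticodon and differences elsewhere in the molecule. RefSeq's mouse annotation (GRCm38.p6) names 8 nuclear genes with this anticodon, n-TSgct1 to n-TSgct8, each 82 bases long, 3 of which lie beside another tRNA gene. Their numbers could not be paired with the numbers in the tables, and no tRNA sequence was used here.

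The MEF libraries held 1473330 to 4375975 counts, of which the 5 members took 38510 to 110957. The heart libraries held 1540287 to 3037178, with 23737 to 38572 in the members. Nuclear tRNAs made up 96.3% to 97.9% of the counts in the MEFs. They made up 55.5% to 62.6% in 7 of the hearts and 40.1% in mouse 17, a 10X heart, whose library thus stood apart. Levels below are counts per 1000000 (CPM) scaled by TMM, a factor that evens out differences in composition. Changes are on the log2 scale from edgeR's quasi-likelihood test, with p-values adjusted by Benjamini-Hochberg over all transcripts tested in the table and called under 0.05.

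The members differed widely in abundance. The row tRNA-Ser-GCT-3/4 was the major member in every library, with 69.7% to 80.2% of the Ser-GCT counts of MEFs and 65.8% to 74.5% of those of hearts. The second, tRNA-Ser-GCT-2, held 17.4% to 28.8% in MEFs and 24.0% to 33.6% in hearts. The other members were minor: tRNA-Ser-GCT-1 held 1.31% to 2.84% and 0.315% to 1.29%, and tRNA-Ser-GCT-5 held 0.104% to 0.433% and 0.0369% to 0.0850%. At the bottom was tRNA-Ser-GCT-6, with 3 to 22 counts per MEF library and 3 to 14 per heart, so its values are set by few reads. This order was the same in every MEF library, with no overlap between neighbours. In the hearts the ranges of tRNA-Ser-GCT-5 and tRNA-Ser-GCT-6 in CPM overlapped, and in GFP mouse 5 their order was reversed (5.91 and 6.36 CPM). The largest half-width of a 95% Wilson interval for a library's share was 0.399 percentage points for tRNA-Ser-GCT-3/4 in the MEFs and 0.596 in the hearts. These intervals cover counting error only.

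**Figure D1:**
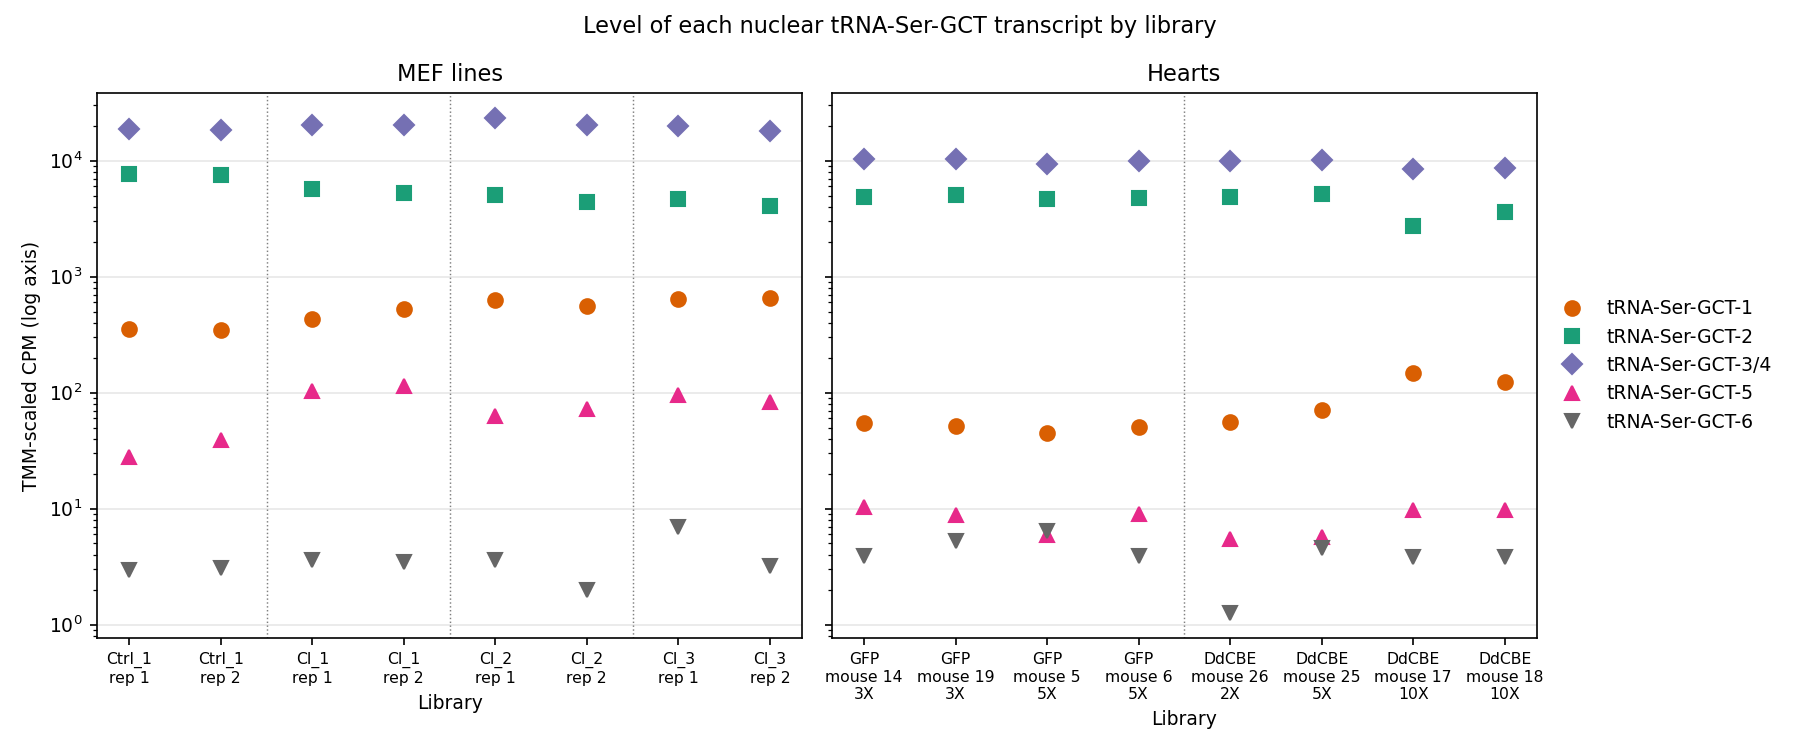
TMM-scaled CPM on a log axis of the 5 Ser-GCT transcripts in each of the 8 MEF libraries (left) and 8 hearts (right), 1 point per library. tRNA-Ser-GCT-3/4 is the top point in every library; tRNA-Ser-GCT-2 is lower in all 6 Cl libraries (4061 to 5645 CPM) than in Ctrl_1 (7581 and 7747), and tRNA-Ser-GCT-1 is highest among hearts in both 10X hearts (148 and 123 CPM).

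In the MEFs the composition of the anticodon differed between Ctrl_1 and the Cl lines, while its total did not pass the test. Against Ctrl_1 the mean of the 3 Cl lines was 1.62-fold higher for tRNA-Ser-GCT-1 and 2.56-fold higher for tRNA-Ser-GCT-5, both minor members, and 1.59-fold lower for tRNA-Ser-GCT-2, the second in abundance. Thus 3 of the 5 members were called, 2 higher and 1 lower, against 48.3% of all 201 transcripts tested (22.9% higher, 25.4% lower), so the share of members called was near the background. The same 3 members were called in Cl_1, Cl_2 and Cl_3 taken singly, where 33.8%, 46.3% and 50.7% of all transcripts were. The median change over the 5 members was 0.31, beside -0.00080 over all transcripts tested. With 5 members this median is the change of a single row, the rare tRNA-Ser-GCT-6. That row was not called (SE 0.36, adjusted p = 0.521 from edgeR's test), so the median gives no direction for the anticodon.

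The level of tRNA-Ser-GCT-2 was 7747 and 7581 CPM in Ctrl_1. It was 5645 and 5298 CPM in Cl_1, 5040 and 4420 in Cl_2, and 4643 and 4061 in Cl_3. Every Cl library lay below both Ctrl_1 libraries, as did the Cl libraries for 22.9% of all transcripts tested. The change was -0.67 (SE 0.07, adjusted p = 3.67e-04, n = 6 against 2) for the mean of the Cl lines. By line it was -0.49 in Cl_1, -0.70 in Cl_2 and -0.82 in Cl_3, with adjusted p of 0.00596, 0.00132 and 5.99e-04 from edgeR's test. The Cl_1 call was lost without the second Cl_1 library (-0.40, adjusted p = 0.0727). Cl_3 against Cl_1 gave a log2 change of -0.33 (SE 0.09) with an edgeR adjusted p of 0.0361, beside 25.9% of transcripts called in that comparison, whereas the test across all 3 Cl lines gave an adjusted p of 0.0778.

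The minor member tRNA-Ser-GCT-1 went the other way. Its level was 352 and 349 CPM in Ctrl_1, 435 and 525 in Cl_1, 627 and 558 in Cl_2, and 639 and 649 in Cl_3. All 6 Cl libraries lay above both controls, as they did for 21.4% of all transcripts tested. The change was 0.70 (SE 0.12, adjusted p = 0.00257) for the mean of the lines. By line it was 0.45 in Cl_1 (adjusted p = 0.0380), 0.76 in Cl_2 (0.00502) and 0.88 in Cl_3 (0.00215). The call in Cl_1 was lost with nuclear tRNA scaling (adjusted p = 0.0640) and without either Ctrl_1 library, the second Cl_1 library or either Cl_2 library, with adjusted p of 0.0541 to 0.146 in those fits.

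A much rarer member, tRNA-Ser-GCT-5, changed most. It stood at 28.1 and 38.9 CPM in Ctrl_1, 102 and 114 in Cl_1, 62.4 and 71.7 in Cl_2, and 94.6 and 83.5 in Cl_3, so that here Cl_1, not Cl_3, was the line farthest from the control. The groups did not overlap. The change was 1.35 (SE 0.18, adjusted p = 0.00105) for the mean of the lines. By line it was 1.68 in Cl_1 (adjusted p = 0.00145), 0.99 in Cl_2 (0.00928) and 1.40 in Cl_3 (0.00205). The Cl_2 call was lost without the first Ctrl_1 library (0.76, adjusted p = 0.0600). These levels rest on 86 to 344 counts per library.

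The 2 remaining rows did not pass. The major row, tRNA-Ser-GCT-3/4, stood at 18810 and 18372 CPM in Ctrl_1, 20420 and 20295 in Cl_1, 23238 and 20273 in Cl_2, and 20041 and 18064 in Cl_3. Control and Cl libraries overlapped, and the change was 0.13 (SE 0.07, adjusted p = 0.143) for the mean of the lines. With library totals in place of TMM, a scaling that also moved the median of all transcripts to 0.10, the change was 0.23 (adjusted p = 0.0129). In Cl_2 the change was 0.23 with an adjusted p of 0.0531, and 4 alternative fits on all libraries and 1 without the second Cl_2 library moved it under 0.05. In tRNA-Ser-GCT-6, at 2.94 and 3.09 CPM in Ctrl_1 and 1.97 to 6.92 CPM in the Cl libraries, the change was 0.31 (SE 0.36, adjusted p = 0.521).

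Between the Cl lines, 0 of the 5 members passed edgeR's test across the 3 lines, beside 24.4% of all transcripts tested. At an unadjusted p under 0.05 there were 3, beside 80 of all 201 transcripts tested. DESeq2 called 1 member, tRNA-Ser-GCT-2 (adjusted p = 0.0157), and the share of all transcripts it called was not counted. With the libraries of each line summed, leaving 3 Cl lines against 1 control, the members' calls for the mean of the lines were lost. How many of all transcripts passed in that fit was not counted, so this loss cannot be set against a background. The changes were then 0.71 for tRNA-Ser-GCT-1, -0.64 for tRNA-Ser-GCT-2 and 1.35 for tRNA-Ser-GCT-5, with adjusted p of 0.293, 0.108 and 0.111.

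**Figure D2:**
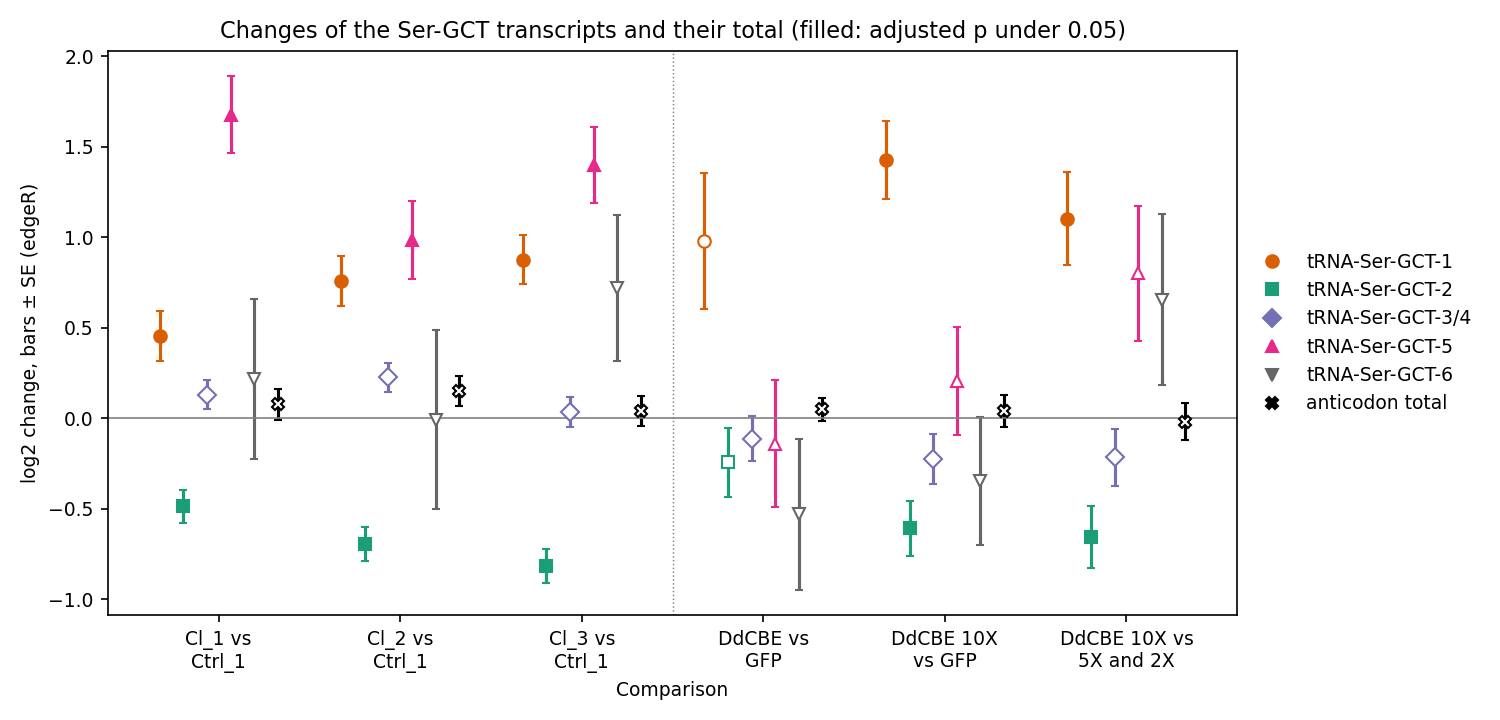
Log2 change with its SE (edgeR) of each Ser-GCT transcript and of the anticodon total for 3 MEF comparisons (left of the dotted line) and 3 heart comparisons (right); filled points have an adjusted p under 0.05. tRNA-Ser-GCT-2 is below 0 and tRNA-Ser-GCT-1 above 0 in all 6 comparisons; tRNA-Ser-GCT-5 is filled in the 3 MEF comparisons only, and the total is filled in none. The comparisons within a tissue share control or editor libraries.

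Summed over the anticodon, the members came to 25087 and 24647 CPM in Ctrl_1, 26672 and 25803 in Cl_1, 29724 and 25517 in Cl_2, and 26907 and 24325 in Cl_3. These CPM carry the factors of a fit on 70 anticodon sums, so they need not equal the sum of the transcript levels. The Cl libraries ranged on both sides of the controls, and the change was 0.09 (SE 0.07, adjusted p = 0.302), beside 42.9% of anticodons called. With the factors of the transcript fit it was -0.042 (adjusted p = 0.613), so the sign of this small difference depended on the scaling.

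Shares within the anticodon need no library scaling. tRNA-Ser-GCT-2 made up 28.8% ± 0.0155 (SD, n = 2) of the Ser-GCT counts in Ctrl_1 and 18.7% ± 1.60 (SD, n = 6) in the Cl libraries, a difference of -10.1 percentage points. The major row made up 69.8% ± 0.0610 in Ctrl_1 and 78.7% ± 1.40 in the Cl libraries, 8.92 points more. tRNA-Ser-GCT-1 made up 1.32% ± 0.0142 and 2.23% ± 0.414, and tRNA-Ser-GCT-5 0.126% ± 0.0307 and 0.342% ± 0.0789. For each of these 4 shares all 6 Cl libraries lay on the same side of both controls; the shares add up to a whole and so are not independent. In CPM this held for 3 of the 5 members, beside 22.9% of all transcripts with every Cl library below and 21.4% with every Cl library above the controls. The exact two-sided permutation test gave p = 0.0357 for each, also after adjustment over the 4, the smallest p that 28 splits allow. With lines as units (3 against 1) the smallest p the design allows is 0.25, which each of the 4 gave. The smallest p after leaving out a Ctrl_1 library was 0.143, a limit of the number of splits, while the differences then stayed between -10.1 and -10.0 points for tRNA-Ser-GCT-2. Isodecoders can be near-identical, and how alike these rows are was not examined. The sources used here do not say how reads that match several isodecoders were assigned. A change in the molecules and a change in how reads were assigned cannot be told apart from these counts; the anticodon total does not depend on that assignment within the anticodon.

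**Figure D3:**
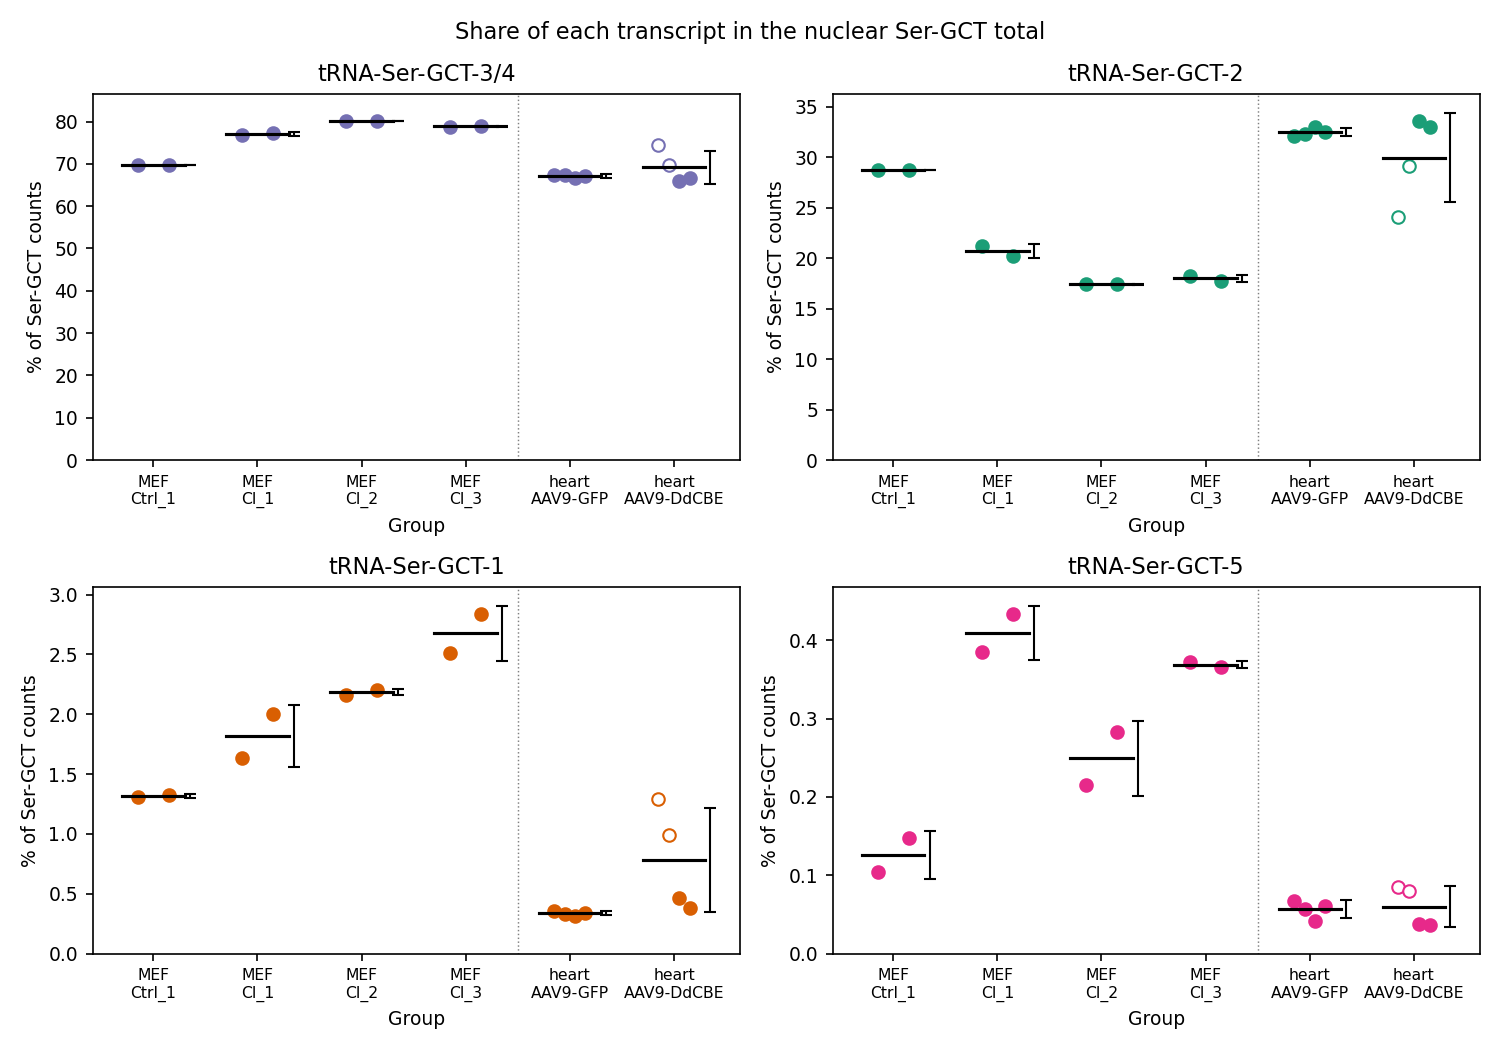
Share of 4 Ser-GCT transcripts in the nuclear Ser-GCT counts, in percent, by group; points are libraries (open points are the 10X hearts), horizontal lines are group means and bars the SD. In the MEFs tRNA-Ser-GCT-2 falls from 28.8% in Ctrl_1 to 17.4% to 21.2% in the Cl libraries, and in the hearts the 10X points (24.0% and 29.2%) lie below the other hearts (32.1% to 33.6%).

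In the hearts, AAV9-DdCBE against AAV9-GFP called 0 members, and also 0 of the 180 transcripts tested (0%). At an unadjusted p under 0.05 there were 35 transcripts, 1 of them a member, and DESeq2 called 0 members. In bulk tissue, fewer cells of a type and less of a tRNA per cell cannot be told apart. The member with the smallest p, tRNA-Ser-GCT-1, stood at 54.8, 51.5, 44.6 and 50.4 CPM in GFP mice 14, 19, 5 and 6. In the editor hearts it stood at 56.0 CPM in mouse 26 (2X), 70.8 in mouse 25 (5X), 148 in mouse 17 and 123 in mouse 18 (both 10X). All 4 editor hearts lay above all 4 GFP hearts, as they did for 5.56% of transcripts tested, and the 2X heart exceeded the highest GFP heart by little. The change was 0.98 (SE 0.38, adjusted p = 0.148, n = 4 against 4), and without the 2X heart it was 1.31 (adjusted p = 0.0392).

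The other members were nearer to 0 between the treatments. For tRNA-Ser-GCT-2 the levels were 4908, 5014, 4670 and 4800 CPM in the GFP hearts, in the same mouse order, and 4895, 5133, 2757 and 3612 CPM in the 2X, 5X and 10X editor hearts. The 2X and 5X hearts lay among or above the controls and both 10X hearts below them; the change over all 4 was -0.24 (adjusted p = 0.380). The major row stood at 9425 to 10433 CPM in the GFP hearts and 8546 to 10050 CPM in the editor hearts, a change of -0.11 (adjusted p = 0.552). tRNA-Ser-GCT-5 (5.47 to 10.3 CPM over all hearts, change -0.14, adjusted p = 0.767) and tRNA-Ser-GCT-6 (1.26 to 6.36 CPM, change -0.53, adjusted p = 0.380) overlapped between treatments. The signs of the changes of tRNA-Ser-GCT-3/4 and tRNA-Ser-GCT-5 turned with nuclear tRNA scaling, to 0.020 and 0.035.

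The editor hearts were then split by the X label, a split known from an earlier look at the data to separate these hearts. The 10X hearts differed from the GFP hearts in 2 of the 5 members. No GFP heart carried the 10X label, so the editor and that label cannot be told apart in this comparison. tRNA-Ser-GCT-1 was 2.69-fold higher (log2 change 1.43, SE 0.21, adjusted p = 8.89e-04), and this call held in each of the 15 alternative fits, with changes of 1.29 to 1.72. tRNA-Ser-GCT-2 was 1.52-fold lower (-0.61, SE 0.15, adjusted p = 0.0131). In this comparison 51.7% of all 180 transcripts were called (23.9% higher, 27.8% lower), so the members' count was not above the background. TMM left the median of all transcripts at -0.23 here, against -0.13 with library totals, 0.05 with nuclear tRNA scaling and -0.04 with DESeq2's size factors, and relative to its own median tRNA-Ser-GCT-2 fell by less than its change states.

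The call for tRNA-Ser-GCT-2 in the 10X hearts was not stable. Its change was -0.34 with nuclear tRNA scaling (adjusted p = 0.0399), and the call was lost with library totals (-0.49, adjusted p = 0.134), without the filter (-0.39, adjusted p = 0.133) and with rows merged alike in both tables (-0.42, adjusted p = 0.0605). It was also lost without GFP mouse 5, GFP mouse 6, editor mouse 26 or editor mouse 25, with changes of -0.45 to -0.42 and adjusted p of 0.0578 to 0.159. Without mouse 17 the change was -0.42 (adjusted p = 0.0428), and without mouse 18 it was -0.81 (adjusted p = 0.00348). For tRNA-Ser-GCT-1 the change was 1.29 without mouse 17 (adjusted p = 0.00942) and 1.56 without mouse 18 (adjusted p = 0.00268).

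Within the editor hearts, tRNA-Ser-GCT-1 was higher in the 10X hearts than in the 5X and 2X hearts (1.10, SE 0.26, adjusted p = 0.0145) and tRNA-Ser-GCT-2 lower (-0.65, SE 0.17, adjusted p = 0.0232), beside 31.1% of transcripts called. With 1 heart each at 5X and 2X, their spread was taken from the other groups. The tRNA-Ser-GCT-1 call was lost without mouse 26 (adjusted p = 0.0569) or mouse 17 (0.0536), and the tRNA-Ser-GCT-2 call in 11 of 15 alternative fits. Against GFP the 5X heart showed changes of 0.49 for tRNA-Ser-GCT-1 and 0.08 for tRNA-Ser-GCT-2, and the 2X heart 0.16 and 0.014. None of these passed, beside 0.556% of transcripts called at 5X and 0% at 2X. The heart comparisons share their GFP or editor hearts and are not independent of each other. Mouse 17 also had the lowest share of nuclear tRNA counts (40.1%), and the part of this in the results was not tested.

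The Ser-GCT total stood at 14937, 14078, 13119 and 13512 CPM in GFP mice 14, 19, 5 and 6, and at 14016 (2X), 14964 (5X), 14874 (10X, mouse 17) and 13732 CPM (10X, mouse 18) in the editor hearts. Treatments overlapped, and the change was 0.05 (SE 0.06, adjusted p = 0.934) for all editor hearts and 0.04 (SE 0.09, adjusted p = 0.865) for the 10X hearts, beside 0% of anticodons called in either comparison. At an unadjusted p under 0.05 there were 3 and 15 anticodons, Ser-GCT not among them. With the factors of the transcript fit the 10X change was -0.33 (adjusted p = 0.0589), so no direction can be given for this total.

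As shares, which need no scaling, tRNA-Ser-GCT-1 made up 0.336% ± 0.0180 (SD, n = 4) of the Ser-GCT counts in the GFP hearts and 0.780% ± 0.434 (SD, n = 4) in the editor hearts. Both 10X hearts, at 1.29% and 0.993%, lay above the 2X and 5X hearts at 0.377% and 0.464%, and these above the highest GFP heart at 0.358%. The exact two-sided permutation test gave p = 0.0286, the smallest that 70 splits allow, and 0.114 after adjustment over 4 members. tRNA-Ser-GCT-2 made up 32.5% ± 0.393 and 30.0% ± 4.40 (exact permutation p = 0.4, 0.533 adjusted), and the major row 67.1% ± 0.374 and 69.2% ± 3.95 (exact permutation p = 0.4, 0.533 adjusted). The wide SD of the editor hearts came with the 10X hearts, where tRNA-Ser-GCT-2 held 24.0% in mouse 17 and 29.2% in mouse 18, against 33.0% and 33.6% in the 2X and 5X hearts. tRNA-Ser-GCT-5 made up 0.0568% ± 0.0109 and 0.0596% ± 0.0261 (exact permutation p = 0.943), from 10 to 28 counts per heart.

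The shares in the control groups of both tables can be set side by side. In Ctrl_1 and the GFP hearts, tRNA-Ser-GCT-1 made up 1.32% and 0.336% of the Ser-GCT counts, and tRNA-Ser-GCT-5 made up 0.126% and 0.0568%. tRNA-Ser-GCT-6, on few counts, made up 0.0113% and 0.0326%. The abundant tRNA-Ser-GCT-2 made up 28.8% and 32.5%, and the major row 69.8% and 67.1%. Over all libraries the mean share of tRNA-Ser-GCT-5 was 0.288% in the MEFs and 0.0582% in the hearts, a wider gap than between the controls, since the Cl libraries averaged 0.342%. No test was made, because tissue and table cannot be told apart.

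Among the nuclear serine tRNAs, GCT was the most abundant anticodon in every library. It held 46.4% to 48.4% of nuclear serine counts in the MEFs and 44.5% to 49.3% in hearts, and of all nuclear tRNA counts 2.48% to 2.99% and 2.22% to 2.70%. Its share of nuclear serine counts was 47.2% ± 0.440 in Ctrl_1 and 47.0% ± 0.795 in the Cl libraries (exact two-sided permutation p = 0.679). In the hearts it was 45.6% ± 1.29 with GFP and 47.3% ± 1.82 with the editor (exact two-sided permutation p = 0.143, 0.257 adjusted over 2 shares). Thus neither comparison passed for the share of the anticodon, with differences of -0.226 and 1.71 percentage points.

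**Figure D4:**
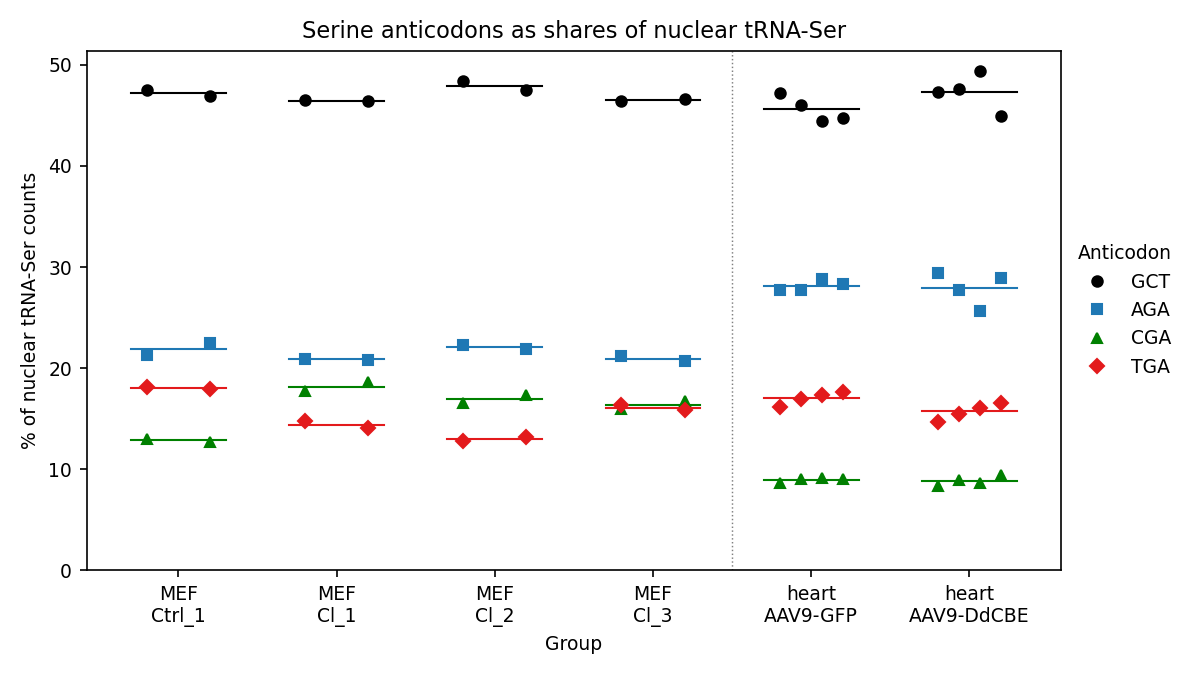
Share of the GCT, AGA, CGA and TGA anticodons in the nuclear tRNA-Ser counts, in percent, by group. Points are libraries and lines group means. Ser-GGA is part of the nuclear tRNA-Ser counts but is not drawn, with a mean share of 0.083% in the MEFs and 0.245% in the hearts. GCT lies between 44.5% and 49.3% in all 16 libraries, and in the MEFs CGA is lower and TGA higher in Ctrl_1 (12.8% and 18.0%) than in the Cl libraries (17.1% and 14.5% on average).

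Among the other serine anticodons of the MEFs, CGA and TGA moved in opposite directions, while AGA did not pass. Of 8 rows with the AGA, CGA or TGA anticodon 6 were tested, and 3 were called in the mean of the Cl lines, a share near the 48.3% of all transcripts. tRNA-Ser-CGA-1 (0.37, adjusted p = 0.00360) and tRNA-Ser-CGA-2 (0.43, adjusted p = 0.00103), which read the UCG codon, were higher. tRNA-Ser-TGA-1, whose anticodon pairs with UCA, was lower (-0.40, adjusted p = 0.00373). Summed by anticodon, Ser-CGA changed by 0.51 (adjusted p = 7.32e-05) and Ser-TGA by -0.22 (adjusted p = 0.0180), beside 42.9% of anticodons called. Ser-AGA, at 0.06 (adjusted p = 0.493), did not pass. The median change of the 6 rows was -0.06.

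In the 10X hearts against GFP, 3 of the same 6 rows passed, all lower, beside the 27.8% of all transcripts that were lower: tRNA-Ser-AGA-2/1 (-0.37, adjusted p = 0.0465), tRNA-Ser-CGA-1 (-0.79, adjusted p = 0.00489) and tRNA-Ser-TGA-1 (-0.76, adjusted p = 0.00435). These calls rest on the transcript fit, whose median change was -0.23. In the fit on anticodon sums Ser-AGA, whose counts in the hearts all come from tRNA-Ser-AGA-2/1, gave 0.0050 (adjusted p = 0.971), Ser-CGA -0.08 (adjusted p = 0.473) and Ser-TGA -0.19 (adjusted p = 0.177), and none passed. The lower level of tRNA-Ser-AGA-2/1 thus differed between the scalings of the 2 fits. Its share of nuclear serine counts, which sets it against the other serine tRNAs only, was 28.1% with GFP and 28.5% in the 10X hearts. Of the 20 rows of nuclear tRNA-Leu and tRNA-SeC, which like serine tRNAs have a long variable arm, 16 were tested. In the mean of the Cl lines 10 of them passed, 4 higher and 6 lower, beside 48.3% of all transcripts (22.9% higher, 25.4% lower). In the 10X hearts 8 passed, 2 higher and 6 lower, beside 51.7% (23.9% higher, 27.8% lower), so that count was near the background. Between all editor hearts and GFP hearts 0 rows of either list passed, beside 0% of all transcripts.

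Mitochondrial tRNA-Ser-GCT, which reads the same codons inside mitochondria and lacks the D arm of other tRNAs, is a separate gene of mitochondrial DNA. Its level in the MEFs was 36.4 ± 18.3 CPM (SD, n = 2) in Ctrl_1 and 16.6 ± 9.04 (SD, n = 6) in the Cl libraries, with overlapping ranges (23.5 to 49.4 and 5.22 to 26.7) and a change of -1.17 (adjusted p = 0.128). In the hearts it stood at 1475 ± 214 CPM with GFP and 1626 ± 456 with the editor (SD, n = 4 each), a change of 0.14 (adjusted p = 0.660).

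The transcripts whose log2 CPM followed the Ser-GCT total most closely over the 8 MEF libraries were tRNA-Ser-AGA-2/1 (Pearson r = 0.96), tRNA-Cys-GCA-3 (0.81) and tRNA-Gln-CTG-2 (0.79), out of 196 compared. Over the 8 hearts they were tRNA-Thr-CGT-2 (0.97), tRNA-Thr-AGT-2 (0.96) and tRNA-Leu-TAG-1 (0.96), out of 175. For these correlations the total was scaled with the factors of the transcript fit, not with those behind its levels above. In the 10X hearts against GFP the change of the total was -0.33 with the transcript factors and 0.04 in the anticodon fit. The correlations describe 8 points that share libraries and scaling factors, and are given without a test.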

How the data were processed

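The deposited files give, for MEFs and hearts apart, raw counts of reads per transcript, as the authors made them. By the labels' protocols, RNA was extracted in mild acid and treated by oxidation and beta-elimination before mim-tRNAseq on a NextSeq. The submitters' processing notes name cutadapt 3.5 and build mm39. For aligner, counter and shared reads, the sources used here give nothing. Total counts per library are in the results above.

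The test was edgeR 4.0.16 in R 4.3.3 (TMM, filterByExpr by group with minimum count 10 and minimum total 15, glmQLFit and glmQLFTest; Benjamini-Hochberg over all transcripts tested, threshold 0.05). All 8 libraries of a table entered 1 fit, with line or treatment as factor; for the 10X comparisons the editor hearts were split by X label. Anticodon totals, with tRX rows left out, were fitted the same way. The SE is the size of the change divided by the square root of F. Differences in shares were tested by exact permutation, two-sided, for members with at least 10 counts in every library. SciPy 1.17.1 gave the Wilson intervals. Scripts were tested on simulated data. Pairs of replicates differed by chi-squares of 93.9 to 1781 per degree of freedom, so none was a copy. Nothing says that MEF passages are independent cultures, so p-values measure the spread between these libraries.

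Alternatives were DESeq2 1.42.0, other scalings, no filter, a replicate block, summed lines, merged rows and leaving out each library. Named were every member, the anticodon total, called rows of other nuclear serine tRNAs, mitochondrial tRNA-Ser-GCT and, per table, the 3 transcripts most correlated with the total. The members and lists were chosen with earlier results of these data known.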

Additional observations from a re-analysis of the deposited data

Results flagged for a closer look

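The share of tRNA-Ser-GCT-6 in the Ser-GCT counts was 0.00851% in the 2X editor heart (mouse 26), far from the other 3 editor hearts at 0.0299% to 0.0334%, and rests on 3 counts. Of 26 groups of 4 hearts examined this way 1 stood out, and chance flags about 1 in 20.

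Among the editor hearts, 10X differed from 5X and 2X by 1.10 on the log2 scale for tRNA-Ser-GCT-1 and by -0.65 for tRNA-Ser-GCT-2, each called by edgeR's test of that difference (adjusted p = 0.0145 and 0.0232).

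The tRX-Ser-GCT rows, which stayed out of the comparisons, held 18 to 71 counts per MEF library. They came to 12.5 ± 4.26 CPM, here per library total (SD, n = 6) in the Cl libraries, where the lowest was 8.70, and to 7.63 and 5.03 in the Ctrl_1 libraries. In the hearts 7 libraries had 0 counts in these rows, which allows up to 3 counts each, and mouse 18 had 1.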

How the results depend on the processing

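Over the 40 results for single members, 538 of 595 values under alternatives kept direction and side of the threshold. Of the rest 31 lost the call, 11 gained it and 15 changed sign, none of the last with a call. For the alternatives, libraries left out included, the share of all transcripts called was not counted. Counts of called members under them therefore cannot be set against a background.

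Members called between the Cl lines were 1 with DESeq2, without the filter and with the replicate block. With DESeq2 and with the block it was tRNA-Ser-GCT-2 (adjusted p = 0.0289 from edgeR's test with the block). Without the filter it was tRNA-Ser-GCT-5 (adjusted p = 0.0249 from edgeR's test). The block left 3 calls in the mean of the lines. It changed no other call except tRNA-Ser-GCT-3/4 in Cl_2 (0.22, adjusted p = 0.0230). Deviations of same-numbered libraries correlated at 0.0698 to 0.248 over 6 pairs of lines, so the numbers were not taken as pairs. Summed lines gave 0 calls for the mean of the lines. In the 10X hearts against GFP, 1 member was called with library totals, no filter and merged rows. Against 5X and 2X it was 1 with those 3 settings, nuclear tRNA scaling and DESeq2's size factors.

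Leaving out each library gave 1 to 3 called members in Cl_1, 0 to 1 in all editor hearts, 1 to 2 in the 10X hearts against GFP and 0 to 2 against 5X and 2X.

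Signs turned as follows. For tRNA-Ser-GCT-6 in Cl_2 the change was 0.087 with library totals, 0.0032 without the filter and -0.59 to 0.24 leaving out libraries; in 10X against 5X and 2X it was -0.070 to 1.73 leaving out libraries. For tRNA-Ser-GCT-3/4 with nuclear tRNA scaling it was -0.040 in Cl_3, 0.020 in all editor hearts, 0.055 in 10X against GFP and 0.071 against 5X and 2X, and leaving out libraries -0.052 to 0.11 in Cl_3. For tRNA-Ser-GCT-5 in all editor hearts it was 0.035 with nuclear tRNA scaling, 0.0043 without the filter and -0.27 to 0.13 leaving out libraries; its share difference was -0.00077 points by medians and -0.0057 to 0.010 leaving out libraries.

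For the anticodon total, library totals gave -0.0040 in Cl_3, -0.058 in all editor hearts and -0.22 in 10X against GFP; nuclear tRNA scaling gave -0.019 in Cl_3 and 0.035 in 10X against 5X and 2X. No filter gave -0.020 and -0.11 in the editor and 10X hearts. Transcript-level factors, an alternative chosen after seeing the data, gave -0.042 for the mean of the lines, -0.012 in Cl_1, -0.14 in Cl_3, -0.15 in all editor hearts and -0.33 in 10X hearts. Leaving out libraries gave -0.045 to 0.071 in Cl_3, -0.019 to 0.085 in the editor hearts, -0.083 to 0.096 in 10X against GFP and -0.12 to 0.038 against 5X and 2X.

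Leaving out MEF libraries, share differences were 0.788 to 1.03 points for tRNA-Ser-GCT-1, -10.6 to -9.79 for tRNA-Ser-GCT-2, 8.62 to 9.31 for tRNA-Ser-GCT-3/4 and 0.195 to 0.242 for tRNA-Ser-GCT-5. The adjusted p of the permutation test rose above 0.05 without either Ctrl_1 library or either Cl_2 library, so these calls were lost there. The Ser-GCT share of nuclear serine counts differed by -0.538 to 0.085 points. The cause of these shifts was not tested. tRNA-Ser-GCT-6, with 3 to 22 counts, allows no firm statement.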
